A study of Mus musculus with 16 samples.

Results

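The AP-1 family transcription factors described here are 8 genes, Fos, Fosb, Fosl1, Fosl2, Jun, Junb, Jund and Atf3. They were chosen by gene symbol from 19572 probesets that carry one, among 22206 gene probesets of the Clariom S mouse array, and each was read by 1 probeset. Expression was measured in cells of the olfactory mucosa, the odour-sensing lining of the nose, from 24 mice of both sexes, 7 to 12 weeks old. All mice carried the S100a5-tauGFP reporter, in which green fluorescent protein (GFP) follows S100a5, a calcium-binding protein gene of olfactory sensory neurons whose expression depends on activity. Each mouse stayed 40 h in its own chamber with a flow of clean air (3.1 L/min), and after 26 h received pulses of 10 s every 20 min for 14 h. The pulses held an odorant for 12 mice and filtered air (vehicle) for the other 12. Its identity is not settled: the label of each stimulated sample says bourgeonal, whereas indole stands in the title of the series. Cells pooled from 3 mice were sorted into a GFP+ and a GFP- fraction. This gave 4 pools a treatment and 4 groups of 4 arrays: vehicle GFP+, vehicle GFP-, odorant GFP+ and odorant GFP-. The GFP+ fraction is defined by the reporter, and the GFP- fraction holds every other cell of the dissociated mucosa, neurons included. The numbers of the pools carry no order, and the p-values measure the spread between pools. In such bulk samples, fewer cells of a type and less RNA per cell cannot be told apart.

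AP-1 is a dimer of basic leucine zipper proteins: Fos proteins pair with Jun proteins, Jun proteins also pair with each other, and Atf3 pairs with Jun proteins. Fos, Fosb, Junb, Jun and Atf3 are immediate early genes, which cells transcribe within minutes of calcium entry, growth factors, cytokines or stress, through the kinases and the factors SRF and CREB that act on their promoters. Jund is transcribed more steadily, and Fosl1 and Fosl2 usually follow later. In neurons, Fos is widely used as a mark of recent activity.

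Values are log2 signals, so a difference of 1 is a doubling. The background level of an array, the 95th percentile of its 23 control probesets that match no mouse sequence, was 6.57 to 6.87, and 46.7% to 50.9% of gene probesets exceeded it. Mature sensory neurons were present in both fractions by their marker Omp, at 18.67 ± 0.011 (SD, n = 4) in vehicle GFP+ cells and 18.63 ± 0.072 in vehicle GFP- cells. S100a5 was higher in GFP+ cells with vehicle (15.97 ± 0.26 against 15.04 ± 0.15), which the sort by its reporter sets. Of 14 mature neuron markers, Cngb1 was at background in all 4 groups.

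Calcium and cAMP reach several of these genes through CREB, which binds the sequence TGACGTCA (CRE) and its core TGACG. The 250 bases before the transcription start are shown for the 4 members that hold the TGACG core on either strand, in capitals, since 4 of the 7 members with a RefSeq promoter window (GRCm38.p6) hold it. Those of Fos (chr12:85473640-85473889, + strand), Fosb (chr7:19310046-19310295, - strand), Junb (chr8:84978749-84978998, - strand) and Atf3 (chr1:191183334-191183583, - strand) read, 5′ to 3′:
Fos: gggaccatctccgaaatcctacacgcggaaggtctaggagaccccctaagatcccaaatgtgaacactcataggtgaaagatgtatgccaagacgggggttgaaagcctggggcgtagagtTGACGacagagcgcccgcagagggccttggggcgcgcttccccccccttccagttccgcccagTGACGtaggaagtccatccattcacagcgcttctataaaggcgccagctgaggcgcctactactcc
Fosb: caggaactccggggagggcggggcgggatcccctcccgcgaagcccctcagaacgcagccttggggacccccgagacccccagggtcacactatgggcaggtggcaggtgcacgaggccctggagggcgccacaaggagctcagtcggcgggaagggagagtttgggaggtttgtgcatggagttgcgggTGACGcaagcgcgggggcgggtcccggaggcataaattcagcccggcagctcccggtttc
Junb: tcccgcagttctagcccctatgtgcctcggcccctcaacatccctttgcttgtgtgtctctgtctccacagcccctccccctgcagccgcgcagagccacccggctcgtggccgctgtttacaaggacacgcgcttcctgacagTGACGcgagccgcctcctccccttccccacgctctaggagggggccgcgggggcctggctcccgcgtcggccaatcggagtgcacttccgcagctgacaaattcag
Atf3: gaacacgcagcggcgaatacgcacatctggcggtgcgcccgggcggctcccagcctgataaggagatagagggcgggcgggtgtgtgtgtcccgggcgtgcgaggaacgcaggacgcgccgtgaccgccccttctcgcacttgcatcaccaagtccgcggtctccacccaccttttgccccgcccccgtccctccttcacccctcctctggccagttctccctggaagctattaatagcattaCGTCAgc
The cores start 129 and 66 bases before the start of Fos, 60 before Fosb, 106 before Junb and, on the other strand, 7 before Atf3. Of all 32851 windows of the same 250 bases, 17.8% hold this core. The windows of Fosl2, Jun and Jund hold none. None of the 7 windows holds the full CRE (1.55% of all windows), the AP-1 site TGANTCA (6.75%) or the CArG box bound by SRF (1.47%). A match is a description of these letters, and no match says nothing of factors bound elsewhere.

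The first question was what the sort separated. AP-1 messenger RNA was lower in GFP+ than in GFP- cells, most of all for Fos, Fosb and Junb. With vehicle, 6 of 8 members were lower in GFP+ cells and 0 higher (limma, Benjamini-Hochberg adjusted p under 0.05 over 22206 gene probesets), against 17.7% of all gene probesets called, 9.97% lower and 7.76% higher. With odorant, 6 of 8 were again lower and 0 higher, against 11.4% of all called, 7.84% lower and 3.57% higher. Fos, Fosb, Fosl2, Junb and Atf3 passed in both treatments, Fosl1 with vehicle and Jun with odorant. The median difference of the 8 members was -2.01 with vehicle and -1.62 with odorant, beside medians of 0.08 and 0.10 over all gene probesets.

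Fos, the best known early gene of the family, was the first of the 3 with a large gap. With vehicle its log2 signal was 15.18, 15.71, 15.92 and 15.01 in the GFP- cells of pools 1 to 4, and 11.16, 11.61, 10.85 and 12.03 in their GFP+ cells. With odorant it was 16.11, 15.26, 14.83 and 14.77 in GFP- cells and 11.69, 10.80, 10.88 and 11.32 in GFP+ cells. Every GFP+ array lay below every GFP- array, and within each fraction the treatments overlapped. Fos was 16.5-fold lower in GFP+ cells with vehicle (difference -4.04, SE 0.28, adjusted p = 4.8e-06) and 16.8-fold lower with odorant (-4.07, SE 0.30, adjusted p = 4.7e-06). Its group means ran from 15.45 ± 0.43 (vehicle GFP-) through 15.24 ± 0.62 (odorant GFP-) and 11.41 ± 0.51 (vehicle GFP+) to 11.17 ± 0.42 (odorant GFP+). In spite of the gap, Fos exceeded the background level on all 16 arrays.

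Fosb, which encodes FosB and its stable truncated form, showed the widest gap of the members in both treatments. With vehicle it was at 12.81, 12.59, 12.84 and 12.93 in the GFP- cells of pools 1 to 4 and at 7.77, 8.31, 8.27 and 9.28 in their GFP+ cells. With odorant it was at 13.83, 12.56, 12.81 and 12.41 in GFP- cells and at 8.29, 7.72, 7.65 and 8.49 in GFP+ cells. The fractions did not overlap, the GFP- arrays with vehicle lay close together (SD 0.15), and 1 GFP- array with odorant stood above the rest. Fosb was 20.9-fold lower in GFP+ cells with vehicle (-4.39, SE 0.27, adjusted p = 2.3e-06) and 29.1-fold lower with odorant (-4.86, SE 0.31, adjusted p = 1.5e-06). Like Fos, it exceeded the background level on all 16 arrays.

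Fosl1, which encodes Fra-1, was close to background. With vehicle it was at 7.06, 7.30, 7.18 and 6.75 in GFP- cells, above the background level on 4 of 4 arrays, and at 6.35, 6.65, 6.58 and 6.29 in GFP+ cells, above it on 1 of 4. In the odorant pools it was at 7.67, 6.87, 6.67 and 6.79 in GFP- cells and at 6.60, 6.62, 6.42 and 6.80 in GFP+ cells, again above background on 4 and 1 arrays. The fractions were apart with vehicle and overlapped with odorant. The difference with vehicle was -0.61 (SE 0.16, adjusted p = 0.026, at least 1.34-fold lower) and with odorant -0.39 (95% interval -0.87 to 0.09, adjusted p = 0.33). The vehicle call was lost without replicate 1 (adjusted p = 0.129), 2 (0.0906) or 3 (0.0802), after quantile normalization (0.254) and with array medians subtracted (0.209).

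Fosl2, which encodes Fra-2, was above background in GFP- cells and at background on every GFP+ array. With vehicle the GFP- arrays were at 7.66, 8.59, 8.82 and 7.35 and the GFP+ arrays at 5.91, 5.77, 5.76 and 6.23. With odorant they were at 7.94, 7.81, 7.46 and 7.65 and at 6.58, 5.43, 6.24 and 6.13. The fractions did not overlap in either treatment, and the GFP- arrays with vehicle were spread most. The vehicle difference for Fosl2 amounted to at least 2.73-fold lower in GFP+ than in GFP- cells (-2.18, SE 0.31, adjusted p = 0.00058) and the odorant difference to at least 1.93-fold lower (-1.62, SE 0.23, adjusted p = 0.00063). Both folds are lower bounds, since the background level stands in for the GFP+ values.

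Of the Jun genes, Junb moved like Fos and Fosb. JunB pairs with Fos proteins and activates fewer genes than c-Jun. With vehicle Junb was at 11.07, 12.35, 11.79 and 10.97 in GFP- cells and at 7.74, 7.27, 7.33 and 8.17 in GFP+ cells. With odorant it was at 12.37, 11.22, 10.94 and 10.83 in GFP- cells and at 7.89, 7.62, 7.93 and 8.01 in GFP+ cells. The fractions were far apart, and the GFP- arrays differed among themselves more than the GFP+ arrays did. Junb was 15.1-fold lower in GFP+ cells with vehicle (-3.92, SE 0.31, adjusted p = 1.3e-05) and 11.1-fold lower with odorant (-3.48, SE 0.30, adjusted p = 1.4e-05).

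Jun, which encodes c-Jun, the partner of every Fos protein, differed far less. With vehicle it was at 12.84, 12.47, 12.88 and 12.62 in GFP- cells and at 12.27, 11.85, 12.54 and 12.21 in GFP+ cells. In the odorant pools it was at 13.10, 12.30, 12.52 and 12.55 in GFP- cells and at 12.13, 11.73, 11.67 and 11.79 in GFP+ cells. The fractions overlapped with vehicle and were apart with odorant, and in all 8 pools the GFP+ value was the lower one. The difference was -0.48 with vehicle (95% interval -0.87 to -0.10, adjusted p = 0.085). With odorant it was -0.79 (SE 0.19, adjusted p = 0.021, 1.73-fold lower). With the pool as a replicate block, Jun also passed with vehicle (adjusted p = 0.0483), as it did with an intensity trend (0.048). The odorant call was lost without replicate 3 (adjusted p = 0.103) or 4 (0.101) and with array medians subtracted (-0.47, adjusted p = 0.0548).

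Jund, the steadily transcribed Jun gene, was at nearly 1 level throughout. With vehicle it was at 14.54, 14.44, 14.85 and 14.32 in GFP- cells and at 14.46, 14.56, 15.09 and 14.42 in GFP+ cells. With odorant it was at 14.37, 14.29, 14.42 and 14.36 in GFP- cells and at 14.50, 14.21, 14.44 and 14.50 in GFP+ cells. The groups overlapped, and 1 of 4 pools in each treatment had the lower value in GFP+ cells. The difference was 0.10 with vehicle (95% interval -0.32 to 0.51, adjusted p = 0.77) and 0.05 with odorant (-0.25 to 0.35, adjusted p = 0.86). With array medians subtracted the differences were 0.46 (adjusted p = 0.0644) and 0.37 (0.055). Both intervals as deposited leave out gaps of the size seen for Fos, Fosb, Junb or Atf3.

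Atf3, a stress-induced factor that can repress or activate with Jun partners, was intermediate. With vehicle it was at 11.10, 11.25, 10.74 and 11.46 in GFP- cells and at 8.94, 9.14, 9.82 and 9.34 in GFP+ cells. In the odorant pools it was at 11.96, 9.72, 10.03 and 10.56 in GFP- cells and at 9.29, 8.74, 8.92 and 8.85 in GFP+ cells. The fractions did not overlap in either treatment, though the GFP- arrays with odorant were widely spread (SD 0.99). Atf3 was 3.55-fold lower in GFP+ cells with vehicle (-1.83, SE 0.22, adjusted p = 0.0002) and 3.07-fold lower with odorant (-1.62, SE 0.40, adjusted p = 0.022). The odorant call was lost without replicate 3 (adjusted p = 0.0567) or 4 (0.115).

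**Figure D1:**
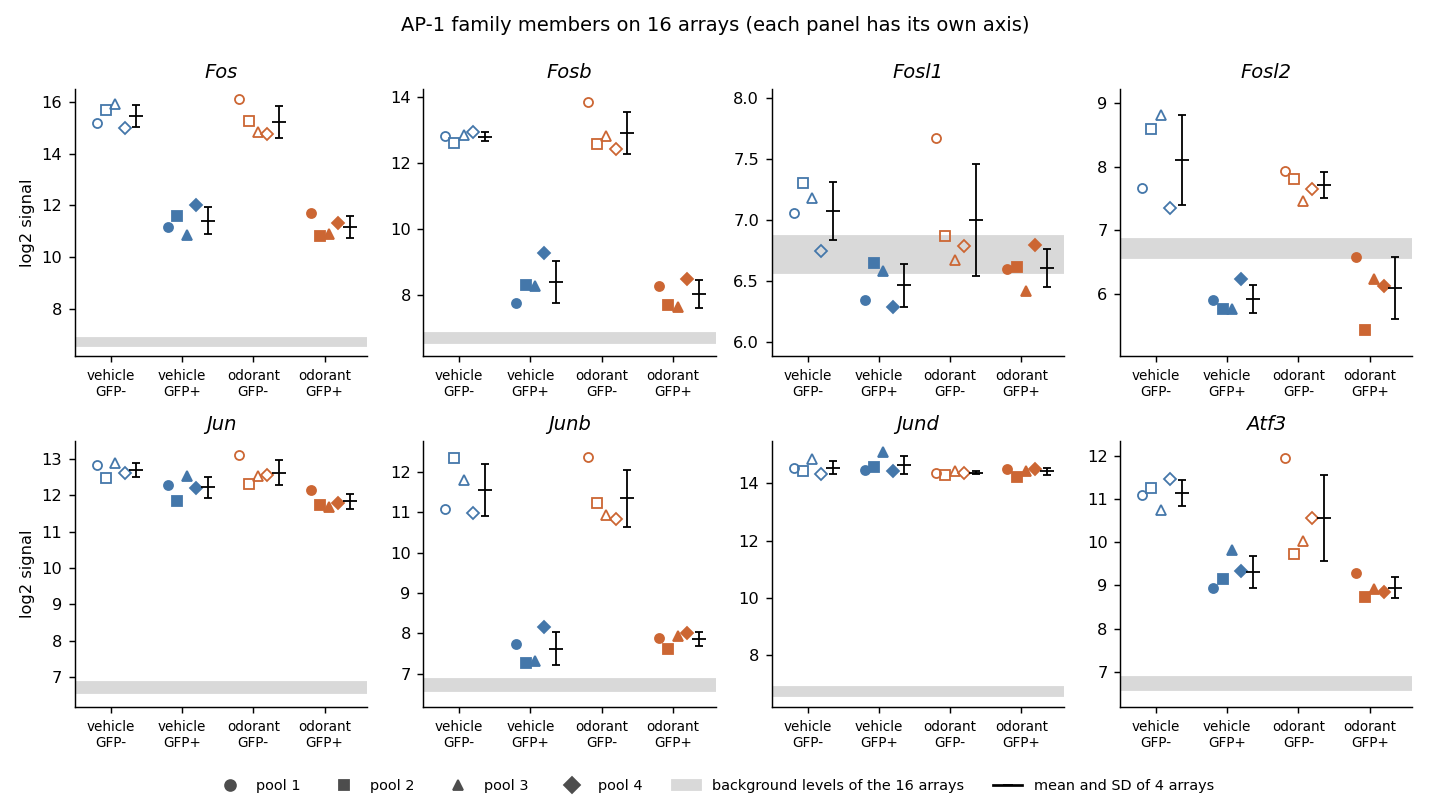
Log2 signal of each member (1 panel a gene, each with its own vertical axis) on the 16 arrays, by group. Open symbols are GFP- and filled symbols GFP+ cells, shapes mark the pools, black bars give the mean and SD of 4 arrays, and the grey band spans the background levels of the arrays (6.57 to 6.87). Fos, Fosb, Junb and Atf3 separate by fraction, Fosl2 falls to background in GFP+ cells, and Jund does not separate.

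Within pools, where both fractions come from the same 3 mice, the GFP+ minus GFP- difference was below 0 in 8 of 8 pools for Fos, Fosb, Fosl2, Jun, Junb and Atf3. It ranged over the vehicle pools from -5.07 to -2.98 for Fos, from -5.05 to -3.65 for Fosb and from -5.07 to -2.80 for Junb. Over the odorant pools it ranged from -4.46 to -3.46, from -5.54 to -3.92 and from -4.48 to -2.83. All pools had these differences in the same direction. How large a share of all gene probesets lay below 0 in every pool was not counted. The pools numbered 4 had the smallest difference for Fos, Fosb, Fosl1 and Junb in both treatments. Eif2s3y, a Y-linked gene, ranged from 2.63 to 3.41 in these pools, against 9.95 to 11.17 in the other 6. The macrophage marker means also differed least between fractions there, by -0.68 with vehicle and -0.61 with odorant, against -2.51 to -1.41 in the other 6 pools. Their GFP+ means were the highest of their groups, 7.40 and 7.15. These patterns were noticed after the values were seen, and their part in the differences was not tested.

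**Figure D2:**
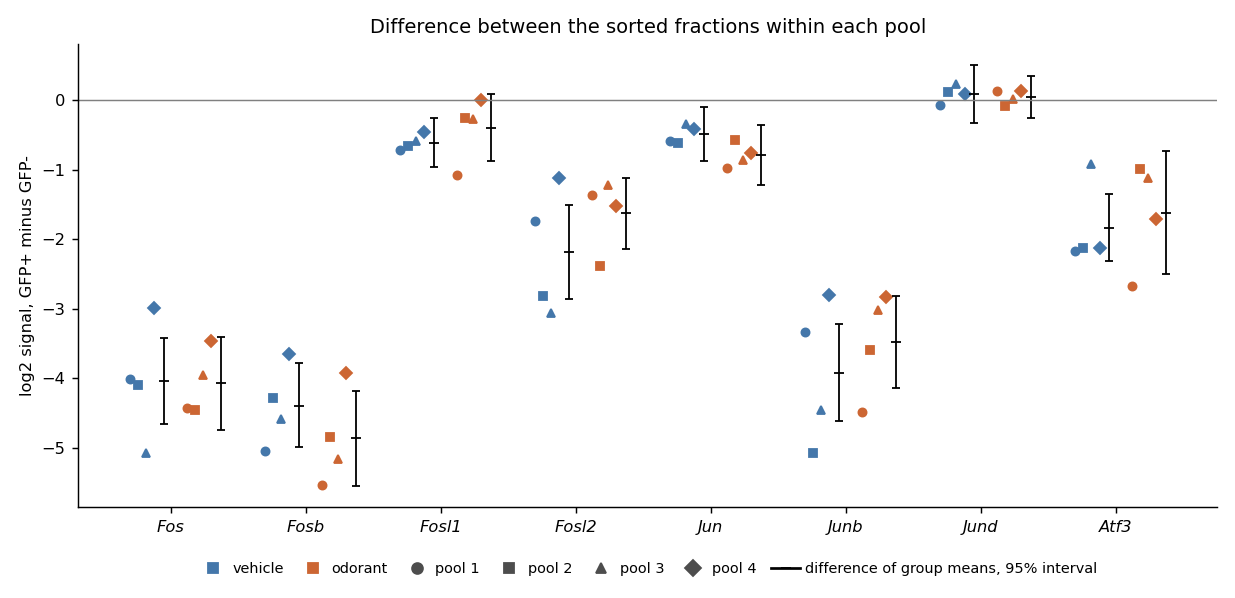
GFP+ minus GFP- difference in log2 signal within each pool (4 pools a treatment, shapes mark the pools), for the 8 members. Black bars are the difference of group means with its 95% interval. Points for Fos, Fosb and Junb lie between -5.54 and -2.80 in all 8 pools, and those for Jund between -0.08 and 0.24.

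The call counts of the members moved little between settings. They were 5 to 7 lower with vehicle and 4 to 6 lower with odorant, with 0 higher throughout. The calls that were lost under some setting were those of Fosl1, Jun and Atf3 given above, and the odorant count was 4 without replicate 3 or replicate 4. Subtraction of array medians moved the median over all gene probesets from 0.08 to 0.45 with vehicle and from 0.10 to 0.42 with odorant. It turned the calls over all gene probesets from 1723 higher and 2213 lower into 10363 higher and 1687 lower with vehicle, and from 793 and 1742 into 7757 and 1520 with odorant. The members stayed at 0 higher and 5 lower in both treatments.

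The machinery around AP-1 is read here against the 17.7% (vehicle) and 11.4% (odorant) of all gene probesets called, a share at which lists this short hold few calls. Of 18 probesets for other leucine zipper factors (17 genes), 0 were called with vehicle and 1 lower with odorant. That 1 was Jdp2, a Jun dimerization partner, 1.42-fold lower (-0.51, SE 0.13, adjusted p = 0.026, but 0.0502 with the pool as a replicate block and lost without any 1 of the odorant replicates). Maff and Batf, a small Maf and a lymphoid AP-1 factor, were at background on all GFP+ arrays, with Maff at 5.95 ± 0.28 against 5.56 ± 0.52 with vehicle, also background. Of 16 inducers of the SRF and CREB routes, 1 was higher and 1 lower with vehicle and 1 lower with odorant, or 1 higher and 2 lower with odorant where the pool was a replicate block. Srf itself differed by 0.09 (SE 0.17, adjusted p = 0.76) and -0.16 (SE 0.17, adjusted p = 0.64). Camk2b, a calmodulin-dependent kinase subunit, was the lower one, at least 2.15-fold and at least 1.51-fold (adjusted p = 0.0023 and 0.0019), and Camk4, higher with vehicle, was at background in both fractions. The Camk4 call was lost without vehicle replicate 2 (adjusted p = 0.0622), 3 (0.123) or 4 (0.155).

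Of 14 MAP kinases and their activators, only Mapk13 (p38 delta) was called, at least 1.53-fold lower with vehicle (adjusted p = 0.00049) and at least 1.27-fold lower with odorant (0.013). The odorant call was lost without replicate 1 (adjusted p = 0.0683) or 2 (0.0755). Of 9 genes listed as AP-1 regulators, 0 were called by limma in either treatment. An unadjusted p under 0.05 was seen for 1 with vehicle and 2 with odorant. With odorant, 1 regulator passed without replicate 1 and 1 with the pool as a replicate block. With array medians subtracted, the counts with vehicle became 8 higher of 18 leucine zipper factors, 6 higher and 1 lower of 16 inducers, 7 higher and 1 lower of 14 MAP kinases and 3 higher of 9 regulators. Those rises stand beside a median of 0.45 over all gene probesets in that setting, against 0.08 as deposited. The subtracted medians of the GFP+ arrays lay below their background levels. The medians of these lists as deposited lay between -0.03 and 0.03 with vehicle.

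Textbook AP-1 targets were in part lower in GFP+ cells. Of 31 classical targets, 13 were lower with vehicle and 12 with odorant, with 0 higher. In each treatment 22 of the 31 were at background in GFP+ cells and 16 in GFP- cells. For targets at background in both fractions, a missing call does not show an unchanged level. With vehicle Vim, the intermediate filament vimentin, was 56.3-fold lower, the cytokine Il1b 41.9-fold, the prostaglandin synthase Ptgs2 at least 5.13-fold and the cytoskeletal linker Ezr 5.41-fold lower. With odorant the matrix protease Mmp9 was at least 25.0-fold and the urokinase receptor Plaur at least 4.05-fold lower. The list medians were -0.35 and -0.18. Il1b, Mmp9, Plaur and Ptgs2 are also genes of activated myeloid cells, and Vim is a gene of many non-neuronal cells.

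Many other early factors went with Fos. Of 9 Egr and Nr4a probesets (7 genes), 7 were lower with vehicle and 6 with odorant. Egr1, induced through SRF like Fos, was at 8.60 ± 0.62 in GFP+ and 13.48 ± 0.29 in GFP- cells with vehicle, 29.6-fold lower (adjusted p = 1.5e-06), and 43.1-fold lower with odorant (1.4e-08). Egr2 was 58.2-fold and 74.3-fold lower. Of 33 other early response genes, 21 were lower with vehicle and 19 with odorant, and 0 higher. At background were 16 of them in vehicle GFP+ and 18 in odorant GFP+ cells, and 5 and 7 in GFP- cells. Arc, Npas4, Bdnf, Dusp2 and Ccn2 were at background in all 4 groups, so no difference can be read for these. The antiproliferative gene Btg2 was 33.2-fold and 35.6-fold lower. Zfp36, which destabilises messenger RNAs, was 17.4-fold lower with odorant.

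Calls among heat shock genes, read as a sign of cell stress, depended on the fit. Of 9, 0 were called in either treatment by limma, and 5 with vehicle and 2 with odorant had an unadjusted p under 0.05, against 30.7% and 22.2% of all gene probesets. With the pool as a replicate block, 1 was higher and 3 lower with vehicle, and 1 was lower with odorant. Hspa1a, the inducible Hsp70 gene, was at 7.92 ± 0.41 in GFP+ and 9.10 ± 0.94 in GFP- cells with vehicle (-1.18, SE 0.41, adjusted p = 0.072, 0.0207 with the pool as a replicate block). Hspa1b, its neighbouring copy, was at 7.26 ± 0.28 and 8.32 ± 0.97 (adjusted p = 0.097, 0.0409 with the block). With odorant Hspa1b was at background in GFP+ cells and at 8.16 ± 1.2 in GFP- cells (adjusted p = 0.051, 0.0343 with the block). Without vehicle replicate 3, Hspa1a (adjusted p = 0.0251) and Hspa1b (0.0158) passed, and with odorant Hspa1b passed without replicate 1 (0.0205) or 2 (0.0427). These 2 genes are near-identical, so their signals may not be separate. The spread of both in GFP- cells was wide, and their part in the AP-1 differences was not tested.

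A list of activity-dependent genes of olfactory neurons, chosen apart from the early factors above, went the other way from Fos. All 6 activity-dependent genes were higher in GFP+ cells with vehicle and 5 of 6 with odorant, with medians of 1.56 and 1.53. Ptprn, of dense-core vesicles, was 4.18-fold higher with vehicle and 4.08-fold with odorant, and Pcp4l1, a calmodulin-binding peptide gene, 2.89-fold and 3.33-fold. The list holds S100a5, whose reporter set the sort, so it is not independent of the gate. Of 5 probesets for genes of low-activity neurons, 1 was higher and 1 lower with vehicle, and 1 was lower with odorant. The lower one was Calb2 in both treatments (-4.39 with vehicle and -4.42 with odorant). The medians of the 5 were 0.12 and -0.23, whereas their mean differed by -0.95 to -0.48 within the pools. With odorant, 1 was higher and 1 lower where the pool was a replicate block. Mature neuron markers had 4 of 14 higher with vehicle and 2 of 14 with odorant, with Pde1c 1.57-fold and 1.61-fold higher. The vehicle count was 2 without replicate 1 and 0 without replicate 2, and the odorant count was 1 with any odorant replicate left out or with the pool as a replicate block. With an intensity trend and robust prior the vehicle count was 7, and with array medians subtracted 11 of 14 were higher with vehicle and 12 with odorant.

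**Figure D3:**
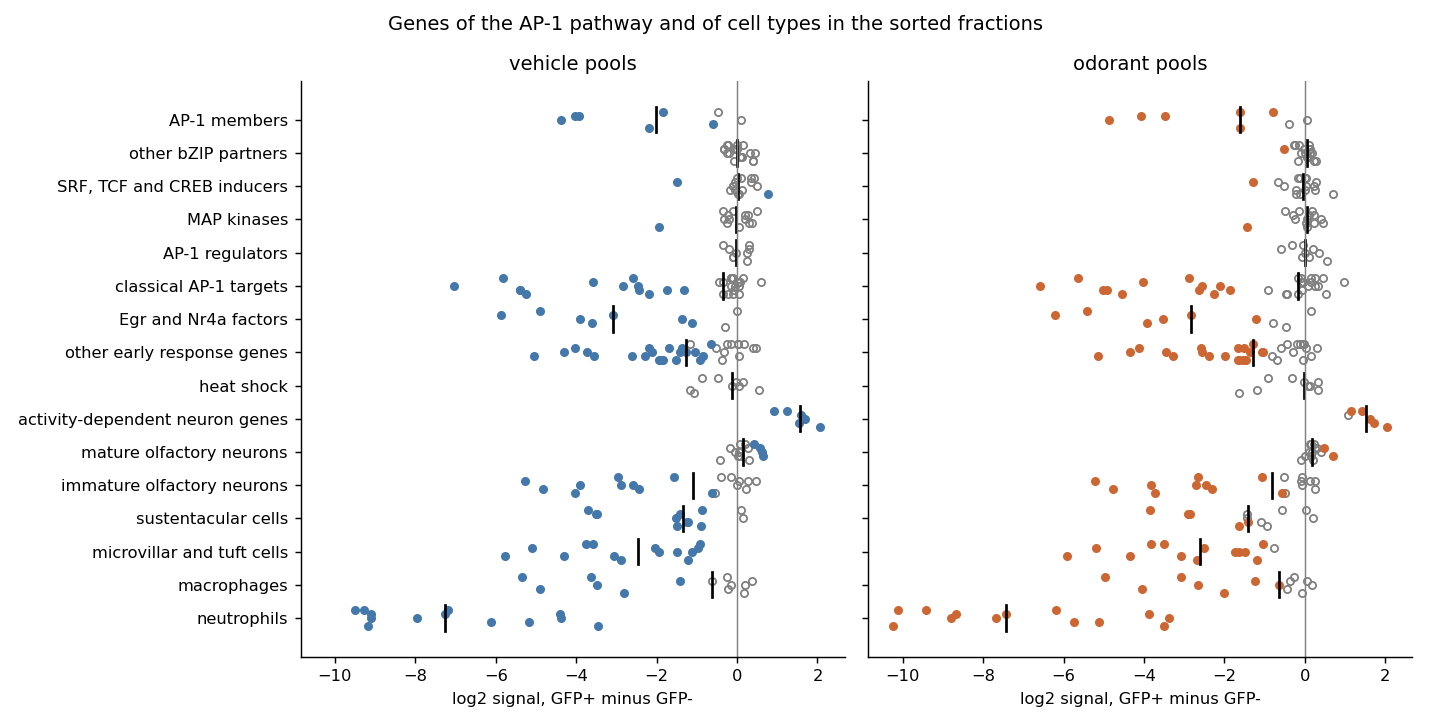
GFP+ minus GFP- differences in log2 signal (horizontal) for the genes of 16 lists (rows), with vehicle on the left and odorant on the right. Filled points passed the adjusted threshold, open points did not, and the black tick is the list median. The medians of the AP-1 members (-2.01 and -1.62), of Egr and Nr4a factors and of other early genes lie to the left of 0, Jund lies just to the right of it (0.10 and 0.05), and the neutrophil median lies farthest to the left (-7.26 and -7.43).

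Markers of other cell types were lower in GFP+ cells along with AP-1. All 13 neutrophil probesets were lower in both treatments, with medians of -7.26 and -7.43, and their mean log2 signal per array was 4.93 to 6.0 in GFP+ and 11.42 to 13.50 in GFP- cells. S100a9, a gene of the neutrophil list, was at background in both GFP+ groups and at least 309-fold lower with vehicle. In all, 9 of 13 neutrophil probesets were at background in vehicle GFP+ cells, 11 of 13 in odorant GFP+ cells and 0 in GFP- cells. Of 13 macrophage probesets, 6 were lower with vehicle and 7 with odorant (array means 6.16 to 7.40 in GFP+ and 7.73 to 8.96 in GFP- cells). The lysozyme gene Lyz2, which is also on the Bowman gland list, was 40.6-fold and 31.2-fold lower. Of the macrophage markers, Cd14 and Tyrobp were at background in GFP+ cells and Cx3cr1 and Aif1 were at background in all 4 groups. Lymphocyte genes had 9 and 7 of 11 lower (4 with odorant without replicate 3), but all 11 were at background in GFP+ cells and at least 9 in GFP- cells. Their part in the AP-1 differences was not tested.

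Non-immune cells of the mucosa moved too. Immature neuron markers had 10 of 18 lower in each treatment (array means 10.09 to 10.37 in GFP+ and 11.69 to 12.08 in GFP- cells), with Nhlh1 at least 11.7-fold lower and at background in GFP+ cells. Dividing and globose basal cell genes had 11 and 7 of 12 lower, with Mki67 at background in GFP+ cells, and the odorant count was 4 without replicate 1 or 2. Supporting (sustentacular) cell markers had 10 and 5 of 12 lower, with array means of 7.78 to 8.95 and 9.43 to 10.79, and 8 lower with odorant where the pool was a replicate block. Microvillar and tuft cell markers had 14 and 13 of 14 lower, with Foxi1 at least 26.6-fold lower with odorant. Bowman gland genes had 7 and 6 of 11 lower, with Sox9 at background in GFP+ cells. Horizontal basal, endothelial, fibroblast and glial markers, most of them at background, had 0 to 3 lower, and 1 endothelial or mural probeset was higher with odorant. Red blood cell genes had 2 of 2 lower, but 1 with odorant without replicate 1 or 3, with quantile normalization or with all 16 arrays in 1 fit. For none of these lists was its part in the AP-1 differences tested.

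Among the 8 GFP- arrays, the order of the members was set beside that of the marker lists. The mean of the neutrophil markers was 12.13, 13.50, 13.50 and 11.45 in vehicle pools 1 to 4 and 13.30, 12.25, 11.42 and 11.80 in odorant pools 1 to 4. The 3 arrays with the highest mean (vehicle 2 and 3, odorant 1) were also the 3 highest arrays of Fos, Fosl1, Fosl2 and Junb. For Fosb, Jun, Jund and Atf3, 2 of those 3 were among the highest 3. The macrophage means had the same 3 arrays on top (8.57 to 8.96, against at most 8.08), as did the Bowman gland means by a margin of 0.02. So did the means of globose basal and cycling cell genes (7.59 to 8.16, against at most 7.56). Other early response genes (8.94 to 9.03, against at most 8.52) and classical AP-1 targets (7.51 to 7.73, against at most 7.20) had them on top too. The lymphocyte and microvillar means did not. The macrophage and Bowman gland lists share Lyz2. The top 3 arrays of the sustentacular and heat shock means shared 2 with the top 3 of Fosb, Jun and Atf3, as many as the neutrophil arrays did, and 1 with those of the other members. Those of the immature neuron means shared 2 with Fosb, Jun and Jund and 1 with the other members. Since the arrays fall into 3 at 13.30 or more and 5 at 12.25 or less, no pooled correlation is given, and the relation was not tested.

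**Figure D4:**
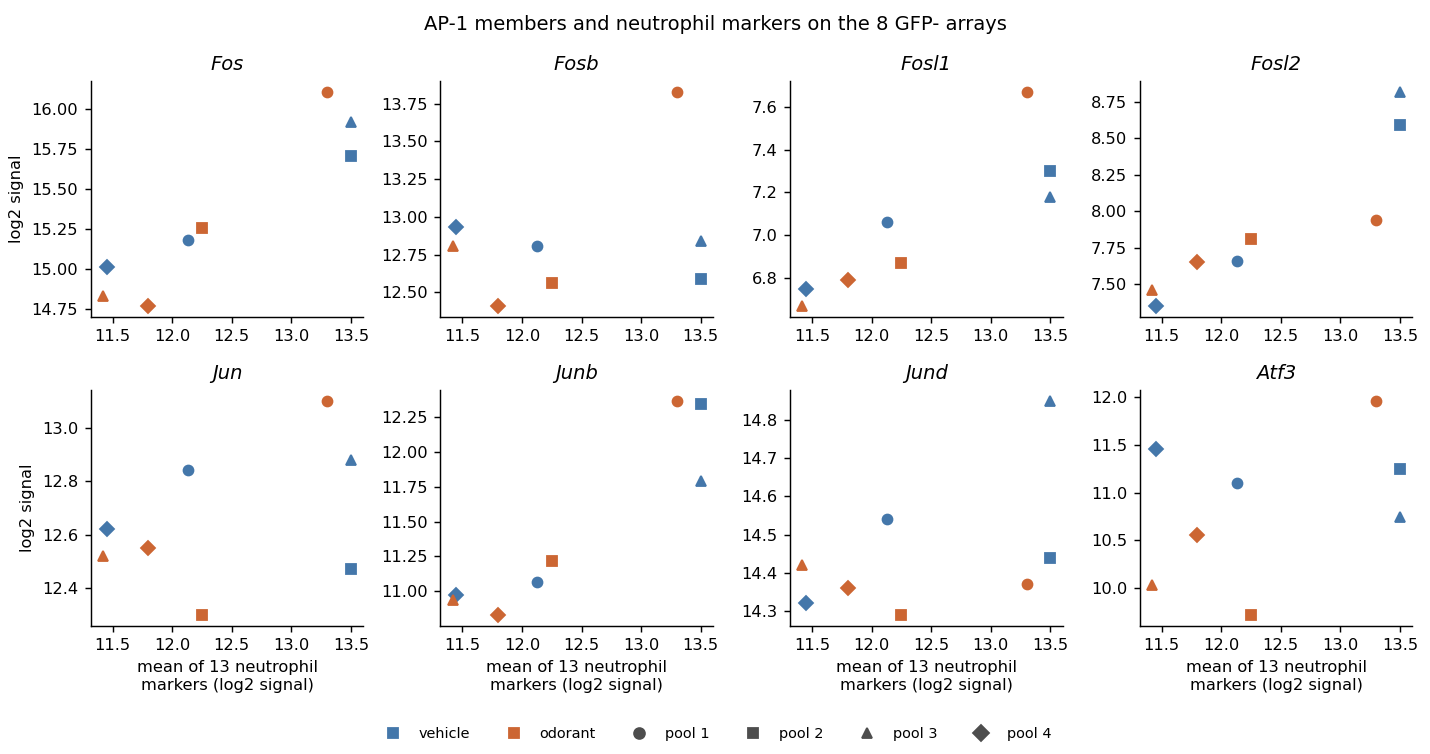
Log2 signal of each member (vertical, own axis per panel) against the mean log2 signal of 13 neutrophil marker probesets (horizontal) on the 8 GFP- arrays; colours mark the treatment and shapes the pools. The 3 arrays with a neutrophil mean of 13.30 to 13.50 are also the 3 highest for Fos, Fosl1, Fosl2 and Junb, and not for the other 4 members. The same 3 arrays were on top for the means of several other lists.

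The second question was whether the odorant changed AP-1 genes in GFP+ cells. No change passed the test. Limma called 0 of 8 members, against 0% of all gene probesets, and 1 of 8 had an unadjusted p under 0.05, against 3.82% of all (848). That 1 was Jun, at 11.83 ± 0.21 with odorant and 12.22 ± 0.28 with vehicle (-0.39, 95% interval -0.78 to -0.0023, unadjusted p = 0.049, adjusted p = 0.999). All 4 odorant arrays lay under the vehicle mean, but the groups overlapped at 11.85 and 12.13.

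The other members bounded the change as follows. Fos was at 11.17 ± 0.42 against 11.41 ± 0.51, a difference of -0.24 (95% interval -0.85 to 0.36). Fosb differed by -0.37 (-1.04 to 0.31), Atf3 by -0.36 (-0.81 to 0.09) and Jund by -0.22 (-0.60 to 0.16). Junb differed by 0.24 (-0.22 to 0.69). All groups overlapped. The highest upper bounds were 0.69 for Junb and 0.68 for Fosl2, against 0.36 for Fos. Fosl1 (0.14, -0.18 to 0.46) and Fosl2 (0.18, -0.33 to 0.68) were at background on most or all arrays of both groups, so no fold is given. Every adjusted p was 0.999.

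In GFP- cells, the background for that question, limma again called 0 of 8 members, against 0% of all gene probesets, and 0 of 8 had an unadjusted p under 0.05, against 6.84% of all (1520). Atf3 had the widest difference, 10.57 ± 0.99 with odorant against 11.14 ± 0.30 with vehicle (-0.57, 95% interval -1.46 to 0.33, adjusted p = 0.79). Fosl2 differed by -0.39 (-1.06 to 0.28), Fos by -0.21 (-0.89 to 0.47), Junb by -0.20 (-1.04 to 0.63), Jund by -0.18 (-0.52 to 0.16), Jun by -0.09 (-0.51 to 0.34), Fosl1 by -0.07 (-0.58 to 0.43) and Fosb by 0.11 (-0.50 to 0.71). The treatments overlapped for every member.

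A single odorant array set much of this spread. Odorant GFP- replicate 1 was the highest of its group for 7 of 8 members, all but Jund, and the median deviation of the 8 from their group means was 0.77 on it. Its median over all gene probesets was also the highest of the group, 6.76 against 6.64 to 6.65. The share of all gene probesets highest on it was not counted. The same array held the highest group mean of sustentacular (10.79), Bowman gland (9.71), microvillar (8.75), macrophage (8.96), neutrophil (13.30) and heat shock (11.03) genes. Its mean of mature neuron markers was the lowest of the group, 15.81 against 15.89 to 15.95. The part of these lists in the spread was not tested. Without it, Fosb differed by -0.20 in place of 0.11, Fos by -0.50, Junb by -0.55 and Atf3 by -1.03 (adjusted p = 0.438), and 0 members were called.

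Whether the odorant effect differed between fractions was asked with the interaction, the GFP+ effect minus the GFP- effect. Limma called 0 of 8 members, against 0% of all gene probesets, with 0 of 8 at an unadjusted p under 0.05, against 4.92% of all (1093). Fosl2 had 0.56 (95% interval -0.30 to 1.43), Fosb -0.47 (-1.41 to 0.46), Junb 0.44 (-0.55 to 1.43) and Jun -0.30 (-0.86 to 0.25). Fosl1 and Atf3 each had 0.21, Jund had -0.04 and Fos -0.03 (-0.97 to 0.91). The wide intervals of Fos, Junb and Atf3 show how little 4 pools a group can bound here. With the pool as a replicate block, 0 members were called as well.

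**Figure D5:**
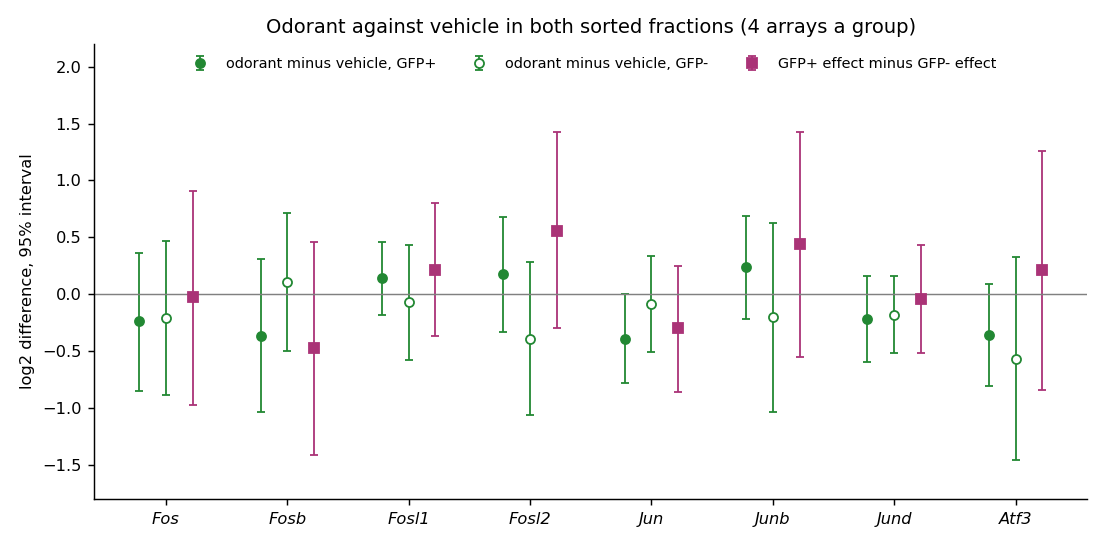
Odorant minus vehicle difference in log2 signal for each member in GFP+ cells (filled circles) and GFP- cells (open circles), and the difference between those effects (squares), with 95% intervals from fits on 8, 8 and 16 arrays. All intervals span 0 except that of Jun in GFP+ cells, which ends at -0.0023.

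The genes whose pattern over the 16 arrays was most like each member were found by the root mean square difference of log2 values centred on their own means, over 18584 probesets with a symbol. For Fos these were the chemokine receptor Cxcr4 (0.28), the lysosomal thiol reductase Ifi30 (0.37) and Zfp36 (0.40), against a median of 2.14 over all. Cxcr4 is also on the immature neuron list, and its GFP+ means (6.26 with vehicle and 5.81 with odorant) lay below background. For Fosb they were the odorant receptor Olfr1442 (0.42), Calb2 (calretinin, 0.44) and Btg2 (0.45), against 2.42. Calb2 is also on the list of low-activity neuron genes, and Olfr1442 was under background in GFP+ cells. For Junb they were the decoy interleukin receptor Il1r2 (0.34), the annexin Anxa2 (0.36) and Gng2 (0.36), against 1.97. Il1r2 is also on the neutrophil list, and the GFP+ means of Il1r2, Anxa2 and Gng2 lay below background.

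For Fosl2 the nearest were Trim12a (0.27), the integrin Itga4 (0.27) and Slc8b1 (0.30), against a median of 1.12. Slc8b1 was below background in the mean of every group, and Trim12a in both GFP+ means. For Atf3 they were the chemokine Ccl5 (0.34), Ddah2 (0.39) and Erbb2 (0.41), against 1.10. Ccl5 and Erbb2 were below background in the mean of every group, and Ddah2 in both GFP+ means. For Jun they were Hsd17b11 (0.18), Serping1 (0.22) and Tshz1 (0.22), against 0.54, with Serping1 below background in both GFP+ means. For Fosl1 they were Cpne3 (0.16), Ccdc12 (0.16) and Actr3 (0.17), against 0.49, with Ccdc12 likewise below background. For Jund they were Rnf139 (0.13), Ube2d2a (0.14) and Pip4p1 (0.14), against 0.36. Among the members themselves, Fos was nearest to Junb (0.38) and Fosb (0.45) and farthest from Jund (2.12).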

How the data were processed

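RNA (50 to 100 ng) of GFP+ and GFP- cells from 8 pools of 3 mice was hybridised to 16 Clariom S mouse arrays, 1 array a fraction. The deposited log2 values were made by the authors with Affymetrix Expression Console, per the submitters' processing notes. For their normalization no method is given in the sources used here, and they entered the fits unaltered. Of 28846 probesets, 6640 controls were left out, and 22206 gene probesets were tested. Of these, 19572 carry 1 symbol, 0 several and 2634 none. Arrays hold no read depth, so their number limits the precision.

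Each comparison was fitted over all gene probesets with limma 3.58.1 in R 4.3.3 (lmFit, eBayes), on the arrays of its groups, with Benjamini-Hochberg adjustment and a threshold of 0.05. GFP+ was compared with GFP- cells within each treatment, odorant with vehicle within each fraction, and the interaction was fitted on all 16 arrays. A probeset was at background in a group where it did not exceed the background level of any array. Where that held, or the group's mean did not exceed its mean background level, a fold is a lower bound against that level. A test on simulated data with 200 shifted probesets of 22206 called 54% of shifts of 1 and 97% of shifts of 2 for the vehicle fractions. For the interaction it called 28% and 86%. Between the real vehicle fractions 17.7% of gene probesets were called, and the simulated noise held no pairing by pool. The simulated shares therefore need not hold for the real fractions.

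Alternatives were quantile normalization, subtraction of array medians, leaving out dim probesets (11606 kept, above background on at least 4 arrays), an intensity trend with a robust prior, all arrays in 1 fit, a replicate block and leaving out each replicate. The members and gene lists were chosen with earlier results of these data known. The text names the 8 members, up to 4 genes with the smallest p from each pathway list and up to 2 from each cell type list. It also names genes at background, the fixed genes Maff, Jdp2, Batf, Srf, Egr1, Hspa1a, Hspa1b, Omp and S100a5, and the 3 genes most like each member. Both fractions of a pool come from the same mice, so they are paired by pool; deviations of same-numbered fractions correlated at 0.11 to 0.16 with vehicle and at 0.014 to 0.36 with odorant. Promoter windows are from RefSeq (GRCm38.p6); 7 of 8 members have one here. Python 3.11.15 and matplotlib 3.10.9 made the plots.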

Additional observations from a re-analysis of the deposited data

How the results depend on the processing

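The count of members called ran from 5 to 7 between vehicle fractions and from 4 to 6 between odorant fractions, with 4 without replicate 3 or 4, and stayed at 0 in the other comparisons under every alternative run. Over all gene probesets, the count of calls between vehicle fractions was 12050 with array medians subtracted and 2479 to 3002 with 1 replicate left out. Between odorant fractions it was 9277 with array medians subtracted. For odorant against vehicle in GFP+ cells it was 3 with the pools numbered 4 left out, an alternative chosen after seeing the data, and 0 to 3 with 1 replicate left out. Signs turned for some differences, none of them called. With quantile normalization Omp with vehicle was at -0.041. With array medians subtracted Jdp2 with vehicle was at 0.045 and Srf with odorant at 0.157. With 1 replicate left out, Srf with vehicle ran from -0.015 to 0.233. In GFP- cells the odorant difference then ran from -0.200 to 0.271 for Fosb, from -0.246 to 0.019 for Jun, from -0.294 to 0.038 for Fosl1 and from -0.547 to 0.064 for Junb. The interaction ran from -0.373 to 0.324 for Fos, from -0.0031 to 0.560 for Atf3 and from -0.0999 to 0.0023 for Jund, and was 0.118 for Fos without the pools numbered 4. The cause was not tested for any of these. The pairing by pool as a replicate block gave 7 members lower with vehicle and 6 with odorant, and changed no call of a member other than that of Jun with vehicle. Odorant and vehicle pools of the same number hold different mice (correlations of -0.10 to 0.31, 9 of 16 arrays closest to their own number). Those numbered 4 also shared a low signal of the Y-linked gene Eif2s3y, 2.63 to 3.41 against 9.95 to 11.17 in the others. The replicate block by number left 0 members called. With 4 arrays a group, shifts near 1 were often missed in simulated data, and Fosl1 and Fosl2 lie near background.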
